A study of Homo sapiens and Mus musculus with 74 samples.

Results

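The 7 genes described here encode proteins closely related to core ribosomal proteins. They are Rps27l, Rpl22l1, Rpl36al, Rpl7l1, Rpl39l, Rpl3l and Rpl10l, chosen by name as ribosomal protein-like genes that are not pseudogenes, and they make up 7 of the 55174 genes and 28 of the 142604 transcripts of the mouse count table. The transcript that codes for the longest protein stands for each gene, which is compared with its parent, the core gene Rps27, Rpl22, Rpl36a, Rpl7, Rpl39, Rpl3 or Rpl10. The mice carried either both wild-type copies of Rpl41 (WT) or none (Rpl41 -/-, called KO), the latter made by CRISPR-Cas9 deletion of the whole coding sequence after electroporation of C57BL/6J zygotes, so the gene was missing in every cell of the body. Kidney and brain of 10-week-old males were studied as whole-tissue lysates, and the number of founder lines is not given in the sources used here. Messenger RNA was measured by RNA-seq and ribosome-protected fragments (footprints) by Ribo-seq in both tissues, and fragments under 2 adjoining ribosomes by disome-seq in kidney, with 3 libraries in each of 10 groups. The total count of a library, added up over its transcripts, lay between 44998381 and 55077048 for RNA-seq of kidney and between 84433838 and 123745890 for RNA-seq of brain. For Ribo-seq it lay between 11036643 and 42452425 (kidney) and between 9498663 and 35881929 (brain), and for disome-seq between 1187636 and 3018963. A list of 10 kidney markers summed to at least 13618 CPM (counts scaled to the library total) in kidney RNA-seq libraries and at most 4.64 CPM in brain, and a list of 10 brain markers to at least 3386 CPM in brain and at most 15.7 CPM in kidney, as the tissue labels state.

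A ribosome holds a single copy of most of its core proteins, and the genes for them are active in every tissue. A few of these proteins have a paralog, a second gene whose product can take the same place in the particle. Rps27l is known as a target of the tumour suppressor p53, Rpl22l1 as a paralog that rises when Rpl22 is lost, Rpl3l as the striated muscle form of Rpl3, and Rpl39l and Rpl10l as forms used in male germ cells. Rpl10l, Rpl36al and Rpl39l are autosomal genes whose parents, Rpl10, Rpl36a and Rpl39, lie on the X chromosome, and Rpl7l1 is known from assembling large subunits. The questions put to the libraries were whether any of the 7 is raised when Rpl41, the smallest ribosomal protein, is lost, and which of kidney and brain uses which paralog.

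In the mouse annotation (GENCODE M21, GRCm38), Rps27l (ENSMUSG00000036781) lies on the plus strand at chr9:66946086-66949516 and Rpl22l1 (ENSMUSG00000039221) on the plus strand at chr3:28805436-28807424. Rpl36al (ENSMUSG00000049751) lies on the minus strand at chr12:69182731-69184083 and Rpl10l (ENSMUSG00000060499) on the minus strand at chr12:66283379-66284401. The transcripts used for these last genes have 1 exon each, against 5 exons for Rpl36a and 6 for Rpl10. Rpl7l1 (ENSMUSG00000063888) lies on the minus strand at chr17:46773907-46782672, Rpl3l (ENSMUSG00000002500) on the plus strand at chr17:24727820-24736143 and Rpl39l (ENSMUSG00000039209) on the plus strand at chr16:10170226-10174911. Over 1250 bases Rpl36al overlaps Gm49383, another coding gene of the same strand, and reads there cannot be told apart. Rpl7l1 is overlapped over 8766 bases by the lincRNA Gm26904 of the opposite strand, and Rpl22l1 overlaps the antisense gene Gm33051 over 220 bases. Whether counting used the strand is not stated, so reads from these opposite-strand partners may be included.

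The coding sequences decide whether reads of a paralog and its parent can be separated, and those of the closest pairs are shown from the start codon, 5′ to 3′, as in GENCODE M21 transcripts on GRCm38. The parent transcripts shown lie at chr3:90212671-90213651 on the minus strand (Rps27), chrX:134585654-134588056 on the plus strand (Rpl36a), chrX:37082520-37085402 on the minus strand (Rpl39) and chrX:74270860-74273135 on the plus strand (Rpl10). Capitals mark bases that differ between the members of a pair. For Rps27l and Rps27, coding bases 1 to 90 are:
Rps27l: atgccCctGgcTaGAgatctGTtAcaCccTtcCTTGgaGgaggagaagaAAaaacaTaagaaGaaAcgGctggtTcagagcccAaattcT
Rps27: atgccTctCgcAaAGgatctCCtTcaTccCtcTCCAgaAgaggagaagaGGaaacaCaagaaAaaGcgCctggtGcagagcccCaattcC
For Rpl36al and Rpl36a, coding bases 1 to 120 are:
Rpl36al: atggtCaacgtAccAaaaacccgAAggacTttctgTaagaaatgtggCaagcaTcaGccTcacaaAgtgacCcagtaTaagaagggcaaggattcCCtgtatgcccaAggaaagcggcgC
Rpl36a: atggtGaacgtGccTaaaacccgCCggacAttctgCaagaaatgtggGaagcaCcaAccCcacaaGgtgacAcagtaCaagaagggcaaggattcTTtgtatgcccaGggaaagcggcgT
For Rpl39l and Rpl39, the whole coding sequence of 153 bases is:
Rpl39l: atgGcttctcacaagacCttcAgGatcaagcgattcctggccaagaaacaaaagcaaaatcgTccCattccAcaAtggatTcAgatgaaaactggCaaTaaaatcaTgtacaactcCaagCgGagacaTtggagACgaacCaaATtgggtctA
Rpl39: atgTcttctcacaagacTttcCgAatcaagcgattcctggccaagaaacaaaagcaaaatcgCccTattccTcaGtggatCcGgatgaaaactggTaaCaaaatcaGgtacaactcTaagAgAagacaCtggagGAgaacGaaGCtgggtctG
For Rpl10l and Rpl10, coding bases 1 to 120 are:
Rpl10l: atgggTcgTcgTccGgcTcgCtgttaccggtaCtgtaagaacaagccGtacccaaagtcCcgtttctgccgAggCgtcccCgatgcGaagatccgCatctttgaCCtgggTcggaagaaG
Rpl10: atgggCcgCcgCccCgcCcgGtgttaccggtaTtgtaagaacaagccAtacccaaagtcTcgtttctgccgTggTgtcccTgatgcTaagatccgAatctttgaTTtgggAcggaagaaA

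Most differences stood at the third position of a codon, so the proteins were closer than the genes. In the models of Rps27l and Rps27 that both give 84 residues, 60 of 252 coding bases differed, 53 of them at the third position, and 3 residues differed. Rpl36al and Rpl36a differed at 39 of 318 coding bases, 35 of them at the third position, and at 0 of 106 residues. Rpl10l and Rpl10 differed at 98 of 642 bases and 3 of 214 residues, and Rpl39l and Rpl39 at 23 of 153 bases and 3 of 51 residues. The other pairs were further apart, with aligned coding identities of 68.2% for Rpl22l1 and Rpl22, 73.2% for Rpl3l and Rpl3, and 54.0% for Rpl7l1 and the complete model of Rpl7. Footprints had 17 to 34 nucleotides, and windows of 28 bases were compared. Of the 126 such windows in the Rpl39l coding sequence, 11 were also found in Rpl39. For the other 6 paralogs, 0 windows were shared with the parent, so a footprint of that length that matches exactly belongs to the paralog rather than to its parent. Shorter footprints can fit both genes. The longest run shared with the parent was 26 bases for Rpl22l1, 24 for Rpl36al, 23 for Rpl10l, 22 for Rpl3l, 11 for Rps27l and 10 for Rpl7l1.

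Processed pseudogenes, copies of a messenger RNA inserted elsewhere in the genome, are many for ribosomal protein genes, and the alignment allowed reads to fit several places. Of the 28-base coding windows, the share with an exact copy elsewhere in GRCm38 was 94.1% for Rpl22l1, 90.7% for Rpl36al, 55.8% for Rpl7l1, 43.6% for Rpl10l, 40.3% for Rps27l, 15.9% for Rpl39l and 0% for Rpl3l. Of the 50-base windows of the whole transcript it was 66.4% for Rpl22l1, 26.3% for Rpl10l, 25.7% for Rpl36al, 17.1% for Rps27l, 14.8% for Rpl7l1 and 0% for Rpl39l and Rpl3l. The parents held more copied sequence in 6 of the pairs, with 50-base shares of 99.7% for Rps27, 92.6% for Rpl36a, 91.9% for Rpl3, 85.4% for Rpl10, 66.8% for Rpl7 and 44.0% for Rpl39, while Rpl22, with a long 3′ end, stood at 5.9%. Of their 28-base coding windows, the share was 61.6% for Rpl22, 78.9% for Rpl7, 97.6% for Rpl3 and 100% for Rps27, Rpl36a, Rpl10 and Rpl39.

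Levels of different genes were compared as CPM per kilobase (kb), of the transcript in RNA-seq and of the coding sequence in Ribo-seq and disome-seq. Of the 7, Rps27l, Rpl22l1, Rpl36al and Rpl7l1 had the highest levels in both tissues and all assays, and Rpl3l, Rpl39l and Rpl10l lay far below them. Fewer cells of a type and less RNA per cell cannot be told apart in these bulk samples.

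**Figure D1:**
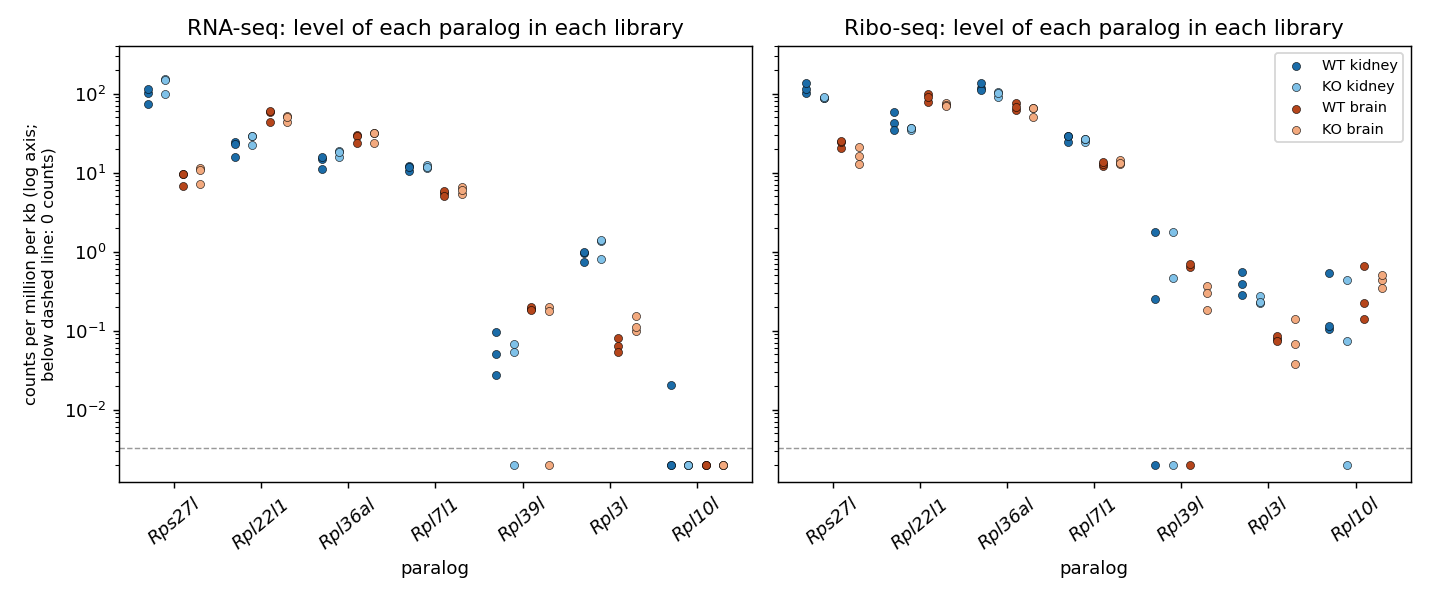
Level of each paralog in each library, in CPM per kilobase on a log axis, with RNA-seq on the left and Ribo-seq on the right; each point is 1 library, coloured by tissue and genotype, and points below the dashed line are libraries with 0 counts. Rps27l, Rpl22l1, Rpl36al and Rpl7l1 lie above 1 in every library, and Rpl39l and Rpl10l below 2.

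With the transcripts used, Rpl22l1 had the highest level of the 7 in WT brain RNA-seq, at 54.2 ± 9.62 CPM per kb (SD, n = 3). Rpl36al followed at 27.5 ± 3.37, Rps27l at 8.68 ± 1.75 and Rpl7l1 at 5.43 ± 0.394 CPM per kb (SD, n = 3), and the ranges of neighbours in this order did not overlap. Kidney had another order: Rps27l led at 96.7 ± 21.3 CPM per kb, ahead of Rpl22l1 at 20.9 ± 4.50, Rpl36al at 13.8 ± 2.32 and Rpl7l1 at 11.4 ± 0.740 (SD, n = 3). The ranges of Rpl36al and Rpl7l1 overlapped in kidney. The place of Rpl36al depends on the transcript: with its model of 526 bases in place of 1276, which gives the same protein, its level was 33.2 ± 5.47 CPM per kb in kidney, and 66.6 ± 8.12 in brain (SD, n = 3). These means were above those of Rpl22l1 in both tissues. The 526-base model had nearly the same counts as the longer one, 2691 to 3536 in WT brain against 2696 to 3546. In WT kidney it had 638 to 1005 against 642 to 1017. Which of Rpl36al and Rpl22l1 ranks higher in RNA thus rests on the model.

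In WT brain footprints, taken per kb of coding sequence, Rpl22l1 led at 90.0 ± 10.7 CPM per kb. Below it were Rpl36al at 68.4 ± 7.49, Rps27l at 23.0 ± 2.45 and Rpl7l1 at 12.8 ± 0.786 (SD, n = 3), and no neighbours overlapped. In WT kidney, Rpl36al at 122 ± 12.3 and Rps27l at 116 ± 16.4 CPM per kb overlapped at the top, and Rpl22l1 at 44.7 ± 11.8 and Rpl7l1 at 27.7 ± 2.71 lay below them (SD, n = 3). Disomes in WT kidney ran in that order as well, from Rpl36al at 155 ± 18.5 and Rps27l at 89.8 ± 16.0 to Rpl22l1 at 43.6 ± 9.78 and Rpl7l1 at 17.8 ± 1.44 CPM per kb (SD, n = 3), with no overlap between neighbours.

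Kidney and brain of WT mice were then compared gene by gene, on the log2 scale as kidney over brain. In Ribo-seq 4 of the 7 paralogs passed the filter on low counts and all 4 of these differed, 3 higher and 1 lower in kidney, where 70.9% of all transcripts tested differed, 35% higher and 35.8% lower. In RNA-seq 6 were tested and 5 differed, 3 higher and 2 lower in kidney, against 64.1% of all transcripts, 28.3% higher and 35.8% lower. A call was therefore common at any transcript. In RNA-seq Rpl3l passed the filter through its kidney libraries and Rpl39l through its brain libraries, where each is higher, so the RNA-seq count leans on the filter. With at least 10 counts required in every library, the paralogs called in RNA-seq were Rps27l, Rpl22l1, Rpl7l1 and Rpl36al. The labels number kidney and brain libraries separately, so tissue and any batch cannot be told apart.

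Rps27l, the p53-responsive partner of Rps27, was higher in kidney in both assays. Its footprints stood at 31.8, 35.6 and 42.1 CPM in WT kidney and at 6.36, 7.58 and 7.79 CPM in WT brain. Every kidney library lay above every brain library. The log2 fold change was 2.42 (standard error (SE) 0.16), or 5.36-fold, with an adjusted p of 7.6e-09. Adjusted p-values of fold changes come from the quasi-likelihood test of edgeR, adjusted by Benjamini-Hochberg for every transcript tested. In RNA-seq it had 58.2, 66.3 and 42.3 CPM in WT kidney against 5.58, 5.57 and 3.83 CPM in WT brain, a log2 fold change of 3.73 (SE 0.28, adjusted p = 1.3e-06), again with no overlap. All 6 of its listed transcripts were higher in kidney in both assays. Rps27 itself did not pass the test in footprints, at 0.31 on the log2 scale (SE 0.16, adjusted p = 0.11).

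Rpl22l1 went the other way. Its footprints stood at 15.4, 12.6 and 21.1 CPM in WT kidney and at 28.9, 36.7 and 33.2 CPM in WT brain, a log2 fold change of -0.92 (SE 0.18, adjusted p = 3.4e-04). Its RNA stood at 13.4, 12.5 and 8.73 CPM in kidney and at 32.6, 33.3 and 23.8 CPM in brain, a log2 fold change of -1.12 (SE 0.25, adjusted p = 0.0025). The groups did not overlap in either assay, and all 9 transcripts were lower in kidney in both. Its parent Rpl22, an RNA-binding protein of the large subunit, was higher in kidney, by 0.76 in footprints (SE 0.20, adjusted p = 0.0033) and 1.29 in RNA (SE 0.22, adjusted p = 4.8e-04), so the members of this pair differed between the tissues in opposite directions.

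Rpl7l1 was higher in kidney in both assays and by nearly the same amount. Its footprints stood at 21.7, 18.2 and 21.6 CPM in WT kidney against 8.82, 9.48 and 9.98 CPM in WT brain (log2 fold change 1.20, SE 0.13, adjusted p = 1.6e-06). Its RNA stood at 31.2, 27.6 and 30.6 CPM against 14.4, 15.0 and 13.0 CPM (log2 fold change 1.32, SE 0.16, adjusted p = 4.8e-05). Neither assay had overlapping groups, and Rpl7 was also higher in kidney, by 0.61 in footprints and 0.81 in RNA (adjusted p = 0.0017 and 0.0095).

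Rpl36al differed in opposite directions in the 2 assays. Its footprints stood at 37.9, 35.5 and 43.2 CPM in WT kidney against 19.6, 24.3 and 21.3 CPM in WT brain, a log2 fold change of 0.93 (SE 0.14, adjusted p = 3.3e-05). Its RNA stood at 18.8, 19.8 and 14.3 CPM in kidney against 37.8, 37.4 and 30.1 CPM in brain, a log2 fold change of -0.74 (SE 0.21, adjusted p = 0.012). In both assays the groups were apart. With the KO libraries of both tissues in place of the WT libraries, the difference in RNA was -0.42 and no longer passed the test (adjusted p = 0.082), while that in footprints did.

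**Figure D2:**
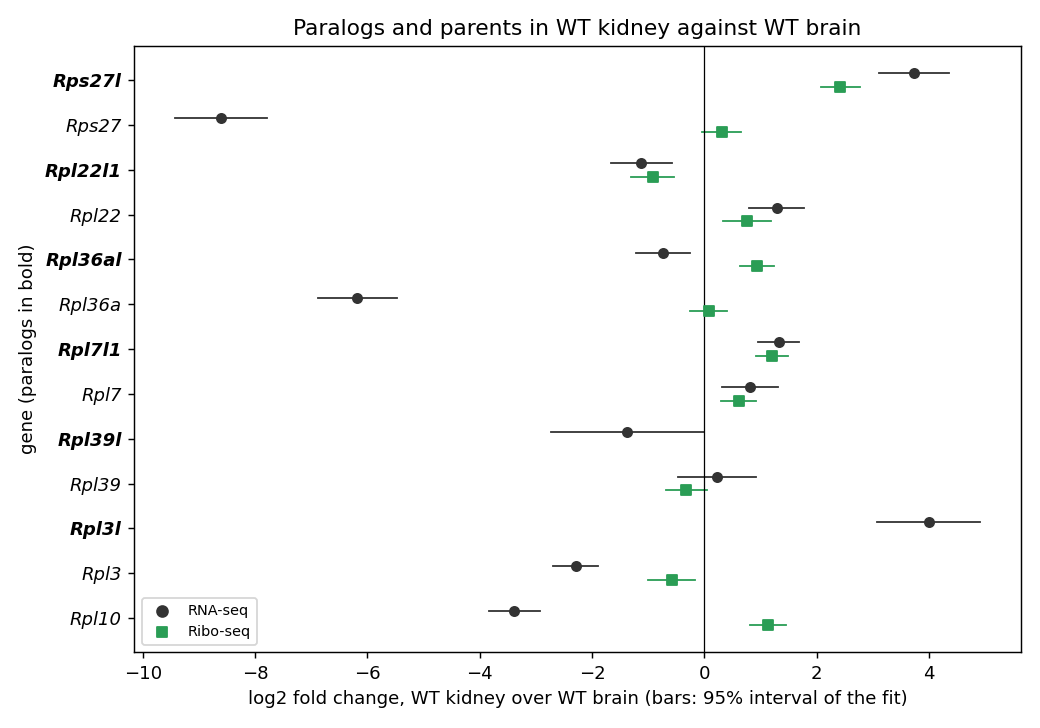
Log2 fold change of WT kidney over WT brain for the paralogs (bold) and their parents, with 95% intervals of the fit, circles for RNA-seq and squares for Ribo-seq; genes or assays without a point did not pass the filter on low counts. Rps27l lies at 3.73 and 2.42, Rpl22l1 at -1.12 and -0.92, and Rps27 at -8.60 in RNA-seq but 0.31 in Ribo-seq.

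Footprints relative to RNA (translation efficiency, TE) were compared between the tissues in a model of both assays. Of the 5 paralogs tested, 2 differed, 1 in each direction, where 19.8% of all transcripts did (11.7% higher and 8.09% lower in kidney). For Rpl36al the TE was 1.68 higher in kidney on the log2 scale (SE 0.28, adjusted p = 3.7e-04), and for Rps27l it was lower, at -1.29 (SE 0.34, adjusted p = 0.013). A higher TE in kidney was not particular to Rpl36al. Of 79 core ribosomal protein genes, 41 were called higher and 6 lower, with a median of 0.89, and Rpl36a stood at 6.26. Rpl22l1 at 0.21 (95% interval -0.51 to 0.94), Rpl7l1 at -0.10 (-0.56 to 0.37) and Rpl3l at -1.61 (-3.22 to 0.00) did not pass the test.

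Several parents with much copied sequence had far lower RNA-seq values in kidney. In RNA-seq, Rps27 was lower in kidney by a log2 fold change of -8.60, with 4 to 16 reads in WT kidney libraries against 7400 to 10231 in brain, while its footprints numbered 223 to 468 in kidney. Rpl36a stood at -6.18 in RNA and 0.08 in footprints, Rpl10 at -3.39 and 1.14, and Rpl3 at -2.29 and -0.58. Across the 79 core ribosomal protein genes, Pearson's r between the share of copied 50-base windows and the kidney-over-brain log2 fold change in RNA-seq was -0.51 (Spearman's rho -0.53). In Ribo-seq the same relation had an r of 0.05, and with the share of copied 28-base coding windows -0.20. These are descriptions across genes of the same libraries, and genes are not independent replicates. Of 46 core genes with copies of 50% or more of their windows, 39 were lower in kidney RNA (median -1.71), against 18 of 33 genes below that share (median -0.16), while the footprint medians were 0.26 and 0.23. Among the paralogs, Rpl22l1 has the largest share of copied windows, and its values in the 2 assays, -1.12 and -0.92, lay close together. The part of multimapping reads in these RNA values was not tested.

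The ratio of a paralog to its parent within a library does not depend on the scaling of that library, and was taken as the log2 of counts per kb. In footprints, where 4 pairs had at least 10 counts for both genes in all 12 libraries, each ratio differed between the tissues. Rps27l to Rps27 stood at -1.49 ± 0.12 in WT brain and 0.64 ± 0.24 in WT kidney (SD, n = 3), so that Rps27l had fewer footprints per kb than Rps27 in brain and more in kidney. The difference was 2.27 over the 12 libraries (SE 0.16, exact permutation test of tissue labels within genotype, two-sided p = 0.005, adjusted p = 0.005, the smallest that 400 assignments can give). The level of this ratio rests on the models used, of 315 coding bases for Rps27l and 252 for Rps27, and its difference between tissues does not.

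Rpl22l1 to Rpl22 ran the opposite way, from 1.40 ± 0.02 in WT brain to -0.27 ± 0.06 in WT kidney (SD, n = 3), a difference of -1.73 (SE 0.11, exact permutation p = 0.005, adjusted p = 0.005). In brain the paralog thus had more footprints per kb than its parent, and in kidney the parent had slightly more. Rpl36al to Rpl36a stood at 0.69 ± 0.09 in WT brain and 1.56 ± 0.14 in WT kidney (SD, n = 3), a difference of 0.80 (SE 0.10, exact permutation p = 0.005, adjusted p = 0.005). Rpl7l1 stayed below Rpl7 in both tissues, at -2.05 ± 0.21 in WT brain and -1.46 ± 0.15 in WT kidney (SD, n = 3), a difference of 0.53 (SE 0.09, exact permutation p = 0.005, adjusted p = 0.005). The Rpl7 model with the longest protein is incomplete, with 838 bases all marked as coding, so the level of this ratio is less certain than its difference.

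In RNA-seq 3 pairs could be tested. Rpl22l1 to Rpl22 differed by -2.40 (SE 0.07), Rpl36al to Rpl36a by 5.44 (SE 0.27) and Rpl7l1 to Rpl7 by 0.59 (SE 0.11), each with an exact permutation p of 0.005 and an adjusted p of 0.005. The Rpl36al value rests on 19 to 44 reads of Rpl36a in kidney, 92.6% of whose windows have copies. With the shortest transcripts of the same proteins, the Rpl7l1 ratio differed by -0.09 and no longer passed the test (exact permutation, adjusted p = 0.76). In brain the direction of the Rpl22l1 RNA ratio rests on the model of Rpl22: with 2051 bases Rpl22 stood at 20.1 ± 2.19 CPM per kb in WT brain, below Rpl22l1, and with 474 bases at 50.0 ± 5.71 (SD, n = 3), near Rpl22l1 at 54.2 ± 9.62.

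**Figure D3:**
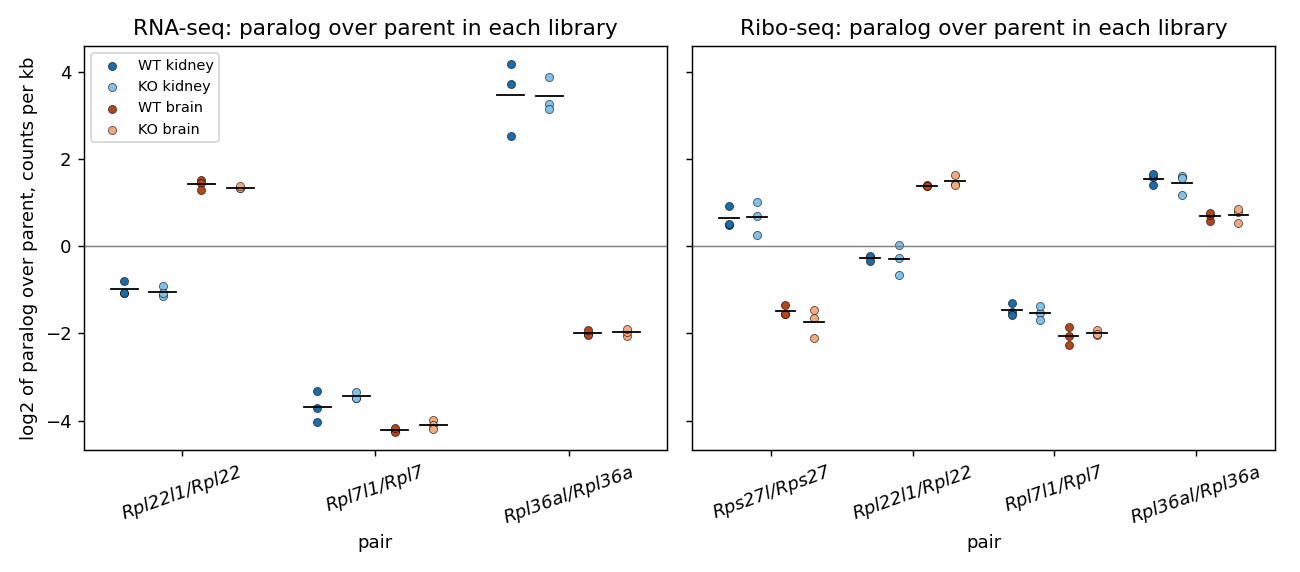
Log2 ratio of paralog to parent in counts per kilobase, 1 point per library and a line at the mean of each group of 3, for the pairs with at least 10 counts of both genes in every library. In Ribo-seq, Rps27l over Rps27 lies above 0 in all kidney libraries and below 0 in all brain libraries, and WT and KO libraries of a tissue overlap in all pairs shown.

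The labels were checked on Rpl41. In kidney RNA-seq it had 5721, 7502 and 3695 reads in WT libraries and 3, 3 and 8 in KO libraries, and in brain RNA-seq 11532, 12199 and 8981 against 7, 12 and 6. Footprints fell from 85, 41 and 50 to 0, 1 and 2 in kidney and from 70, 37 and 76 to 2, 4 and 0 in brain, and disomes from 154, 130 and 71 to 2, 0 and 1. Each of these comparisons passed the test, and every library matched its label.

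None of the 7 paralogs passed the test between KO and WT in any of the 5 pairs of groups. The numbers tested and the share of all transcripts called were 5 paralogs and 0.00992% in kidney RNA-seq, 6 and 0.0134% in brain RNA-seq, 4 and 7.76% in kidney Ribo-seq (4.75% higher and 3.01% lower in KO), 4 and 0.0345% in brain Ribo-seq, and 4 and 0.222% in disome-seq. In edgeR's test without adjustment, 2 paralogs in kidney RNA-seq, 1 in brain RNA-seq, 1 in kidney Ribo-seq, 2 in brain Ribo-seq and 0 in disome-seq had a p under 0.05, and DESeq2 called 0 paralogs in each. Of all transcripts, 16.8%, 3.46%, 25.3%, 12.6% and 10.8% had such a p in these comparisons, and 1 of 4 paralogs in kidney Ribo-seq is close to that share. A p that misses the threshold does not show that a paralog was equal in both genotypes, and the intervals give the sizes these libraries allow. The share of all transcripts whose KO and WT libraries did not overlap was not counted. Groups described below as apart are therefore no result in themselves.

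Rps27l in kidney RNA-seq had the highest value of the 5 paralogs tested. It stood at 57.8, 88.2 and 85.5 CPM in KO libraries 1, 2 and 3 and at 58.2, 66.3 and 42.3 CPM in WT, and the groups overlapped. The log2 fold change was 0.64 (SE 0.26, 95% interval 0.05 to 1.24, adjusted p = 0.29). KO libraries 2 and 3, the high ones, also had the largest share of mitochondrial rRNA of the kidney RNA-seq libraries, at 1.76% and 1.67% of counts against 0.436% to 0.962% in the others. Without KO library 1 the value was 0.86 and passed the test (adjusted p = 0.028). Without KO libraries 2 and 3, an alternative chosen after seeing the data that leaves 1 KO library, it was 0.10. Since these 2 libraries also hold the high Rps27l values, leaving them out lowers the value whatever the cause. The part of the mitochondrial rRNA share in the result was not tested.

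Rps27l footprints in kidney had a value of the opposite sign. They stood at 27.8, 28.0 and 28.8 CPM in KO and at 31.8, 35.6 and 42.1 CPM in WT, so that the groups did not overlap, with a log2 fold change of -0.30 (SE 0.12, 95% interval -0.57 to -0.03, adjusted p = 0.16). In brain Ribo-seq it stood at 6.57, 5.04 and 4.04 CPM in KO and at 6.36, 7.58 and 7.79 in WT (log2 fold change -0.46, SE 0.17, 95% interval -0.83 to -0.08, adjusted p = 0.32), and the groups overlapped. In brain RNA-seq it was 0.26 (95% interval -0.37 to 0.88, adjusted p = 0.90) and in disomes -0.28 (95% interval -0.73 to 0.17, adjusted p = 0.68). Both footprint intervals, which are not adjusted for the number of transcripts, lay below 0.

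Rpl22l1, the paralog known to respond to loss of Rpl22, had 12.4, 16.1 and 16.1 CPM in KO kidney RNA-seq libraries against 13.4, 12.5 and 8.73 CPM in WT, a log2 fold change of 0.53 (SE 0.23, 95% interval -0.00 to 1.07, adjusted p = 0.30) with overlapping groups. Its brain footprints stood at 27.6, 26.1 and 25.2 CPM in KO against 28.9, 36.7 and 33.2 CPM in WT, below all WT libraries (log2 fold change -0.30, SE 0.12, adjusted p = 0.33). This was not particular to Rpl22l1. Of the parents, Rpl22, Rps27, Rpl39 and Rpl36a also lay below all WT libraries in brain footprints, while Rpl3, Rpl7 and Rpl10 overlapped. Rpl22 itself stood at -0.38 there (SE 0.13, edgeR adjusted p = 0.29). Kidney footprints were -0.24 (95% interval -0.58 to 0.10) and brain RNA -0.08 (95% interval -0.53 to 0.37).

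Rpl36al, the autosomal paralog of Rpl36a, had values of opposite sign in kidney RNA and footprints, as Rps27l had. Its RNA stood at 23.6, 19.8 and 22.9 CPM in KO against 18.8, 19.8 and 14.3 CPM in WT (log2 fold change 0.48, SE 0.18, 95% interval 0.08 to 0.89, adjusted p = 0.29). Its footprints stood at 33.7, 28.9 and 32.2 CPM in KO against 37.9, 35.5 and 43.2 CPM in WT (log2 fold change -0.23, SE 0.12, adjusted p = 0.27), and its disomes at 38.7, 30.3 and 41.3 CPM against 53.1, 42.4 and 52.0 CPM (log2 fold change -0.35, SE 0.19, adjusted p = 0.51). The KO footprint and disome libraries lay below all WT libraries, and no test passed.

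Rpl7l1, the relative of Rpl7, had the narrowest footprint intervals. Its log2 fold changes were 0.22 in kidney RNA, 0.21 in brain RNA, -0.02 in kidney footprints, 0.09 in brain footprints and -0.10 in disomes, and adjusted p-values from edgeR ran from 0.35 to 0.94. The sign in kidney RNA held for 1 of its 4 transcripts, the lowest of which stood at -0.83, and with counts summed per gene the value was -0.15. In kidney its footprint interval had bounds of -0.25 and 0.20, and in brain of -0.16 and 0.35.

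**Figure D4:**
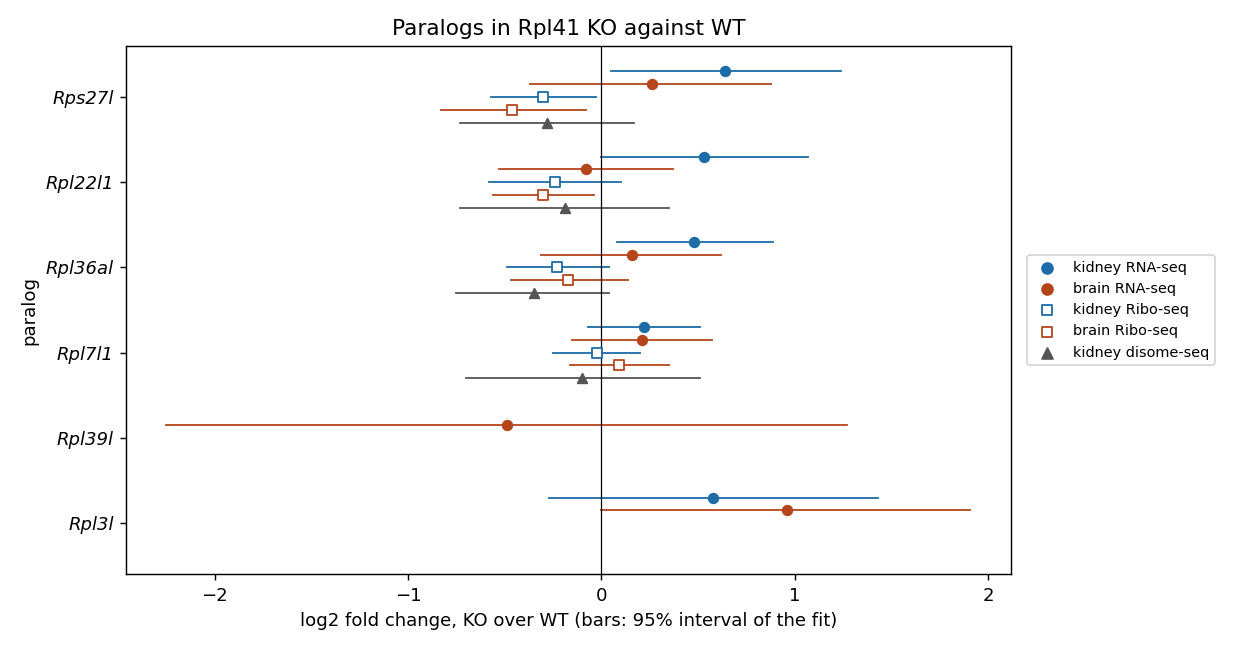
Log2 fold change of KO over WT for each paralog tested, with 95% intervals of the fit, by tissue and assay; Rpl10l passed the filter in none of these comparisons, and no point passed the test after adjustment. Kidney RNA-seq points lie between 0.22 and 0.64, and kidney Ribo-seq points between -0.30 and -0.02.

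TE was then compared between KO and WT with edgeR. The paper, using RiboDiff, reports significant TE changes for many transcripts in both tissues, so the shares called below depend on the test used. In kidney 5 paralogs were tested and 0 called by edgeR, 3 of them with an unadjusted p under 0.05, where 0% of 89685 transcripts were called and 17403 had an unadjusted p under 0.05. All 5 values were below 0: Rps27l -0.94 (95% interval -1.64 to -0.24), Rpl22l1 -0.76 (-1.47 to -0.05), Rpl36al -0.70 (-1.21 to -0.19), Rpl3l -1.18 (-2.37 to 0.01) and Rpl7l1 -0.24 (-0.59 to 0.11). For Rpl7l1 the sign rests on the transcript, since 3 of its 4 transcripts were above 0, up to 0.85, and with counts summed per gene it stood at 0.21. Without KO kidney RNA-seq library 1, Rps27l was -1.14 and passed the test (adjusted p = 0.014), and without KO libraries 2 and 3 it was -0.38 (adjusted p = 0.74). In brain 0 of 5 were called, 0 with an unadjusted p under 0.05, against 0% of all transcripts, and Rps27l stood at -0.70 (95% interval -1.48 to 0.09). Rpl10l was among these 5 with a value of 0.65 and no standard error, since it had 0 reads in brain RNA-seq. Disomes relative to footprints in kidney gave 0 calls among 4 paralogs, 0 with an unadjusted p under 0.05, against 0% of all transcripts, with values from -0.11 to 0.07. DESeq2 called 0 paralogs in each of these comparisons.

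The effect of KO was compared between the tissues by the tissue by genotype term. Of 6 paralogs tested in RNA-seq and 4 in Ribo-seq, edgeR and DESeq2 called 0, and 0 had an unadjusted p under 0.05, against 0.00108% and 0.0767% of all transcripts called by edgeR. The term, as kidney minus brain, was 0.57 for Rpl22l1 (95% interval -0.17 to 1.30) and 0.34 for Rps27l (-0.56 to 1.24) in RNA-seq, and 0.15 for Rps27l (-0.32 to 0.62) in Ribo-seq.

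The ratios of paralog to parent did not pass the test between genotypes either, in 3 pairs in RNA-seq and 4 in Ribo-seq, with exact permutation p-values adjusted over the 7 tests of 0.77 to 0.98 and 0 unadjusted p under 0.05. The differences, KO minus WT within tissue, ran from -0.07 for Rpl22l1 to Rpl22 to 0.18 for Rpl7l1 to Rpl7 in RNA-seq, and from -0.11 for Rps27l to Rps27 (SE 0.16) to 0.03 for Rpl22l1 to Rpl22 (SE 0.11) in Ribo-seq. With the shortest transcripts the Rpl7l1 to Rpl7 difference in RNA-seq was -0.27 (SE 0.30). These standard errors bound how closely paralog and parent went together. In kidney RNA-seq Rpl22 stood at 0.62 (SE 0.24, adjusted p = 0.29) beside Rpl22l1 at 0.53, and in kidney footprints Rps27 stood at -0.27 (SE 0.18, adjusted p = 0.39) beside Rps27l at -0.30.

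The 79 core ribosomal protein genes were set beside the paralogs. In kidney RNA-seq, 71 of 78 core genes had a value above 0 in KO, with a median of 0.56 where all transcripts had -0.03. Both edgeR and DESeq2 called 0 of them. By edgeR 30 of the 78 had an unadjusted p under 0.05, all 30 higher in KO, a larger share than the 16.8% of all transcripts. The 5 paralogs tested had a median of 0.53. Without KO libraries 2 and 3 the core median was 0.13, with 68 of 79 genes above 0 and 0 at an unadjusted p under 0.05, and the paralog median was 0.15. Rpl22l1 then stood at 0.15 and Rpl36al at 0.46. In kidney footprints edgeR called 1 of 79 core genes, where 7.76% of all transcripts were called, and DESeq2 called 0. It was Rplp2, a stalk protein, lower in KO at -0.41. The core median was -0.08 in kidney footprints, 0.10 in brain RNA and -0.16 in brain footprints, against paralog medians of -0.23, 0.19 and -0.23. In kidney TE the core median was -0.59 and the paralog median -0.76, where all transcripts had 0.08. Of the 79 core genes, edgeR called 0 and DESeq2 called 4 in kidney TE. By edgeR 24 had an unadjusted p under 0.05, 0 of them higher in KO, where 19.4% of all transcripts had such a p. Without KO RNA-seq libraries 2 and 3 the core median in kidney TE was -0.19.

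A list of 20 p53 target genes was set beside Rps27l. In kidney RNA-seq 0 of 19 tested were called by edgeR and in brain RNA-seq 0 of 20, both with 0 at an unadjusted p under 0.05. In brain Ribo-seq 0 of 16 were called. There 4 had an unadjusted p under 0.05, all lower, where 12.6% of all transcripts had such a p. DESeq2 called 0 in these. In kidney Ribo-seq 1 of 17 was called, close to the share of 7.76% called among all transcripts. It was Bax, an activator of cell death, lower in KO at -0.52 (SE 0.11, adjusted p = 0.018). The list medians were -0.11, -0.02, -0.15 and -0.23, against medians of all transcripts from -0.03 to -0.01.

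Markers of other cells differed between some groups. Summed red cell markers ran from 405 to 735 CPM in KO brain RNA-seq against 772 to 2394 in WT, from 340 to 441 against 646 to 1793 in brain Ribo-seq and from 145 to 200 against 270 to 308 in disome-seq, with all 5 markers present. Summed lymphocyte markers ran from 8.28 to 9.97 CPM in KO kidney Ribo-seq against 3.83 to 8.04 in WT, with all 8 markers present. The kidney markers ran from 16958 to 19155 CPM in KO kidney RNA-seq against 13618 to 16905 in WT, and from 6195 to 7484 against 5174 to 5948 in kidney Ribo-seq. The brain markers ran from 3731 to 3800 CPM in KO brain RNA-seq against 3386 to 3543 in WT. The male germ cell markers, nearly all of whose sum was Sycp3, ran from 196 to 315 CPM in KO kidney RNA-seq against 114 to 185 in WT. Their part in the paralog values was not tested.

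The 3 low paralogs are known from striated muscle and male germ cells. Rpl3l was measurable in kidney RNA, at 1.32, 1.35 and 1.00 CPM (64, 69 and 45 reads) in WT kidney against 0.0870, 0.0738 and 0.112 CPM (8, 7 and 10 reads) in WT brain. This is 15.9-fold, a log2 fold change of 3.99 (SE 0.41, adjusted p = 1.3e-05), with no overlap. Rpl3l passed the filter on low counts through its kidney libraries, and with at least 10 counts required in every library it was not tested. Summed striated muscle markers went the other way, at 0.742 to 2.04 CPM in WT kidney and 6.52 to 8.78 CPM in WT brain RNA-seq, with Myh1 and Myl2 at 0 in kidney. No window of Rpl3l has a copy elsewhere. Its footprints numbered 7 to 9 in WT kidney and 1 to 2 in WT brain libraries and did not pass the filter. In kidney its level of 0.889 ± 0.140 CPM per kb compared with 17.9 ± 1.67 for Rpl3 in RNA-seq (SD, n = 3), and 0.405 ± 0.130 with 33.0 ± 10.7 in footprints.

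In KO against WT, Rpl3l stood at 0.137, 0.153 and 0.213 CPM (17, 13 and 18 reads) in KO brain RNA-seq, above the 3 WT libraries, with a log2 fold change of 0.96 (SE 0.42, 95% interval 0.00 to 1.91, adjusted p = 0.90). In brain it passed the filter on low counts through its KO libraries, where it is higher. With at least 10 counts required in every library it was not tested there. In kidney RNA-seq it stood at 1.11, 1.85 and 1.90 CPM in KO, overlapping WT (0.58, SE 0.37, adjusted p = 0.39), and without KO libraries 2 and 3 the value was -0.10. In kidney Ribo-seq its KO libraries, with 3 to 14 reads, lay below the WT libraries in CPM, and it was not tested.

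Rpl39l had 14, 15 and 13 reads in WT brain RNA-seq and 2, 4 and 1 in WT kidney, without overlap in CPM, and a log2 fold change of -1.37 that did not pass the test (SE 0.61, 95% interval -2.73 to -0.01, adjusted p = 0.071). Rpl39l passed the filter on low counts only through its brain libraries, where it is higher. With at least 10 counts required in every library Rpl39l was not tested. The difference between tissues passed the test with library totals in place of TMM scaling, with counts summed per gene, with 1 transcript per gene and without WT kidney library 2, at -1.63, -1.45, -1.48 and -1.99 (adjusted p from edgeR between 0.024 and 0.045). In KO brain it had 20, 12 and 0 reads, a log2 fold change of -0.49 with an interval from -2.25 to 1.27. Its footprints numbered 0 to 4 in every library, at or near the floor of 3 counts, and 11 of its 126 windows of 28 bases are shared with Rpl39, which had 94.1 ± 21.3 CPM per kb in WT kidney footprints (SD, n = 3). Such footprints cannot be told from those of Rpl39.

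Rpl10l had 0 reads in all brain RNA-seq libraries and 1 read in 1 of the 6 kidney RNA-seq libraries. In Ribo-seq it had 3, 4 and 2 footprints in WT brain, 4, 10 and 7 in KO brain, 9, 1 and 1 in WT kidney and 0, 2 and 11 in KO kidney. Both genotypes overlapped in CPM in each tissue. Rpl10l shares a run of 23 bases with Rpl10, so short footprints within it can fit either gene. The male germ cell markers other than Sycp3 summed to 0.103 to 0.410 CPM in WT kidney RNA-seq and 0.622 to 0.783 CPM in WT brain, with the sperm markers Tnp1, Acrv1 and Tex101 at 0 in both. In brain Ribo-seq they summed to 5.78 to 21.7 CPM in WT and 1.5 to 9.69 in KO. A count of 0 allows up to 3 reads in a library, so Rpl10l RNA was not detectable at this depth.

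For each paralog with at least 10 counts in all 24 RNA-seq and Ribo-seq libraries, the coding genes with the most similar deviations from the means of each tissue and assay were found among 9887 genes. Over these 24 libraries, which share depth and preparation between genes, Rps27l was most like Smdt1 (Pearson's r = 0.94) and Fkbp2 (r = 0.93), Rpl22l1 like Cox7a2l (r = 0.93) and Zfp120 (r = 0.91), and Rpl7l1 like Spryd7 (r = 0.83) and Tmem70 (r = 0.81). Rpl36al was most like Gm49383 (r = 0.94), the gene that overlaps it, and Uqcrh (r = 0.88). Centring within tissue and assay leaves the genotype in these values, and no p is given.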

How the data were processed

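Kidney and brain lysates of WT and Rpl41 -/- mice were profiled by RNA-seq of poly(A) RNA, Ribo-seq after RNase I (footprints of 17 to 34 nucleotides) and, in kidney, disome-seq (50 to 80 nucleotides). The authors trimmed reads with cutadapt, removed rRNA reads, aligned with STAR to GRCm38 (mm10), allowing multimapping reads, and counted with featureCounts. Versions are not given in the sources used here. The deposited values are whole-number counts per transcript, not normalized, and a read can count for several transcripts. The study calls the replicates biological, but the labels do not say that they came from separate animals, so p-values measure the spread between these libraries. No libraries agreed within sampling noise.

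The members and gene lists were chosen with earlier results of these data known. The named genes are Rpl41, all 7 members, their parents, genes of the lists only where called, and the 2 coding genes most like each member with 10 counts in all 24 RNA-seq and Ribo-seq libraries (Pearson correlation of log2 CPM centred within tissue and assay). Counts were tested with edgeR 4.0.16 in R 4.3.3 (quasi-likelihood F-test, filterByExpr, TMM within assay) over all transcripts of the mouse table, with a Benjamini-Hochberg adjusted p under 0.05 as a call; TE and the tissue by genotype term were interaction terms. The study's own TE tool, RiboDiff, was not run. Intervals are 95% intervals. Ratios required 10 counts of both genes in every library and used exact permutation. Copied windows were exact matches in GRCm38 on either strand. DESeq2 1.42.0 and other settings were alternatives. On simulated data with 200 transcripts changed by 2 on the log2 scale, 100% were called in kidney Ribo-seq, 43% in kidney TE and 74.5% in tissue RNA-seq. The changed transcripts were drawn only from those with higher counts, and the change was larger than any KO value of a paralog here. These shares do not tell how often smaller changes, or changes of the low paralogs, would be called. Same-numbered libraries deviated together, with every correlation over 0.1, in disome-seq between KO and WT (0.12 to 0.21) between assays of the same kidney group, between WT brain Ribo-seq and RNA-seq (0.17 to 0.40) and between KO kidney and brain RNA-seq (0.12 to 0.28), but not between KO and WT in RNA-seq or Ribo-seq of either tissue (from -0.35 to 0.35). A second table, with human transcripts in 28 columns, was not used, and 44 HEK293T samples were not analysed here.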

Additional observations from a re-analysis of the deposited data

How the results depend on the processing

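Under the alternatives run, the number of paralogs called between KO and WT stayed at 0 except where 1 library was left out: it ran from 0 to 1 in kidney RNA-seq and from 0 to 1 in kidney TE, in both cases through Rps27l without KO kidney RNA-seq library 1 (0.86, adjusted p = 0.028, and -1.14, adjusted p = 0.014, edgeR). In RNA-seq between tissues, the number of ratios called was 5 with counts summed per gene and 6 with no minimum and 0.5 added. With the same replicate left out of all 4 groups it was 0 in RNA-seq and 0 in Ribo-seq, where the 8 libraries that stay allow no exact permutation p below 0.056. With the shortest transcripts, an alternative chosen after seeing the data, the Rpl7l1 to Rpl7 ratio in RNA-seq was -0.09 between tissues (exact permutation, adjusted p = 0.76). Rpl36al lost its call in RNA-seq between tissues with the KO libraries (-0.42). With the replicate block no count of paralogs called changed, and the smallest exact permutation p the block allows for a ratio is 0.031. Of results for single genes over the alternatives, 979 kept their sign and their side of the threshold, 22 lost a call and 7 gained one. The sign changed in 53 uncalled values by no more than the standard error, in 8 by more, and in the Rpl7l1 ratio above, which had been called. Depth limits Rpl3l, Rpl39l and Rpl10l footprints, which had few reads.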
